A study of Mus musculus with 6 samples.

Results

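The SLAM (signalling lymphocytic activation molecule) receptors are a small family of immunoglobulin-like proteins on the surface of blood cells. They were taken here as the rows of the count table with the symbols Slamf1, Slamf6, Slamf7, Slamf8, Slamf9, Cd48, Cd84 and Ly9, which gave 8 genes of 56980. All 8 passed the low-count filter, which left 16010 genes for testing. Expression was measured by RNA sequencing of monocytes from B16F10 tumours, a transplanted mouse melanoma. The sort took CD11b-positive, Ly6C-high cells without Ly6G, the surface type of inflammatory monocytes. One group had received lipid nanoparticles (LNP) with GFP mRNA (LNP-GFP, 3 libraries), and the other nanoparticles with mRNA for Gsdme, gasdermin E, a protein that opens pores in membranes when cleaved (LNP-Gsdme, 3 libraries). All 6 libraries are labelled as wild type in genotype. The labels give no strain, age, dose or time, nor whether libraries of a group are separate animals. The p-values therefore cover the spread between these samples alone, which may be technical.

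SLAM receptors mostly bind a second copy of themselves on a neighbouring cell. Cd48 instead binds Cd244 and Cd2. Most members carry in their cytoplasmic tail a tyrosine motif, the immunoreceptor tyrosine-based switch motif, that recruits the adaptors SAP and EAT-2 or, in their absence, inhibitory phosphatases. In monocytes and macrophages the family is known for its part in phagocytosis, in the uptake of bacteria and in the control of the phagocyte oxidase.

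The switch motif separates the members by structure, and the motifs are printed because the adaptors described further on bind them. The motif was searched in frame, as a threonine codon, any codon, a tyrosine codon, 2 further codons of any kind and a codon for valine or isoleucine, in the coding sequences of GENCODE release M21. Capitals mark the tyrosine codon, and each sequence is read 5′ to 3′ on the coding strand.
Slamf7, tyrosine codon 302 of 333: acatttTATtccactgtg
Cd84, tyrosine codon 265 of 329: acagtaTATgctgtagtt
Cd84, tyrosine codon 300 of 329: accattTATtcctcagtg
Ly9, tyrosine codon 587 of 654: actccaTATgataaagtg
Ly9, tyrosine codon 625 of 654: acaatcTACtgctctgtg
Slamf6, tyrosine codon 295 of 331: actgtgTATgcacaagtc
Slamf6, tyrosine codon 319 of 331: acaattTACtccatagtt
Slamf1, tyrosine codon 288 of 343: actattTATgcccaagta
Slamf1, tyrosine codon 335 of 343: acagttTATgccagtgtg
In these 5 receptors every match lay within 67 codons of the end of the coding sequence. Slamf9 held 0 matches in 285 codons. Slamf8 and Cd48 each held 1 match far from the end, at codon 116 of 278 and at codon 107 of 240. Cd48 is anchored in the membrane by a lipid and has no cytoplasmic tail, and the tail of Slamf8 is short. Cd244a, a related receptor for Cd48 that is not among the 8 rows, held 4 matches.

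All 8 members were detected in every library, and 6 of them were abundant. Levels of different genes were compared by the deposited FPKM, which divides counts by gene length and library total. Slamf7 had the highest mean, 46.7 ± 10.2 FPKM in LNP-GFP and 78.6 ± 11.0 in LNP-Gsdme (SD, n = 3). Its mean over the 6 libraries was above that of 94.6% of the tested genes. Slamf9 followed with 45.0 ± 24.2 and 69.9 ± 3.72 FPKM, and Cd48 with 35.4 ± 8.94 and 53.9 ± 5.08 FPKM. In LNP-GFP the means of Slamf8, Ly9 and Cd84 were 25.9 ± 9.78, 18.6 ± 5.16 and 15.4 ± 2.23 FPKM. In LNP-Gsdme the means of the same 3 genes were 27.6 ± 2.51, 24.0 ± 2.22 and 21.3 ± 1.08 FPKM. Slamf6 and Slamf1, best known from lymphocytes, were far lower. Slamf6 stood at 0.595 ± 0.080 FPKM in LNP-GFP and 0.755 ± 0.048 in LNP-Gsdme, and Slamf1 at 0.454 ± 0.135 and 0.578 ± 0.136. The order of the means was the same in both groups. In LNP-GFP the ranges of neighbours in that order overlapped at every step but the one from Cd84 to Slamf6. In LNP-Gsdme they did not overlap between Slamf9 and Cd48, Cd48 and Slamf8, Cd84 and Slamf6, or Slamf6 and Slamf1.

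The fold change was above 0 in LNP-Gsdme for every member, and for 49.3% of all tested genes. For the members it ran from 0.067 to 0.73 on the log2 scale, and 0 of the 8 passed the test over all genes. Slamf7, Cd84 and Cd48 came nearest to it. Without LNP-GFP 2, or without LNP-Gsdme 2, 7 of the 8 fold changes were above 0, with Slamf8 below. Of all tested genes, 6.30% rose and 5.32% fell (edgeR quasi-likelihood test, Benjamini-Hochberg adjusted p below 0.05). At an unadjusted p below 0.05, 3 of the 8 members were higher and 0 lower, against 16.1% of all tested genes higher and 15.4% lower. By DESeq2 3 members rose (9.83% of all tested genes), and by limma-voom 1 (6.46%). The median log2 fold change of the members was 0.39, and that of all tested genes was -0.0066. In 4 members, Slamf7, Cd84, Cd48 and Slamf6, all LNP-Gsdme libraries lay above all LNP-GFP libraries, which held for 19.6% of all tested genes. In sorted cells measured in bulk, fewer cells of a type and less RNA per cell cannot be told apart.

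**Figure D1:**
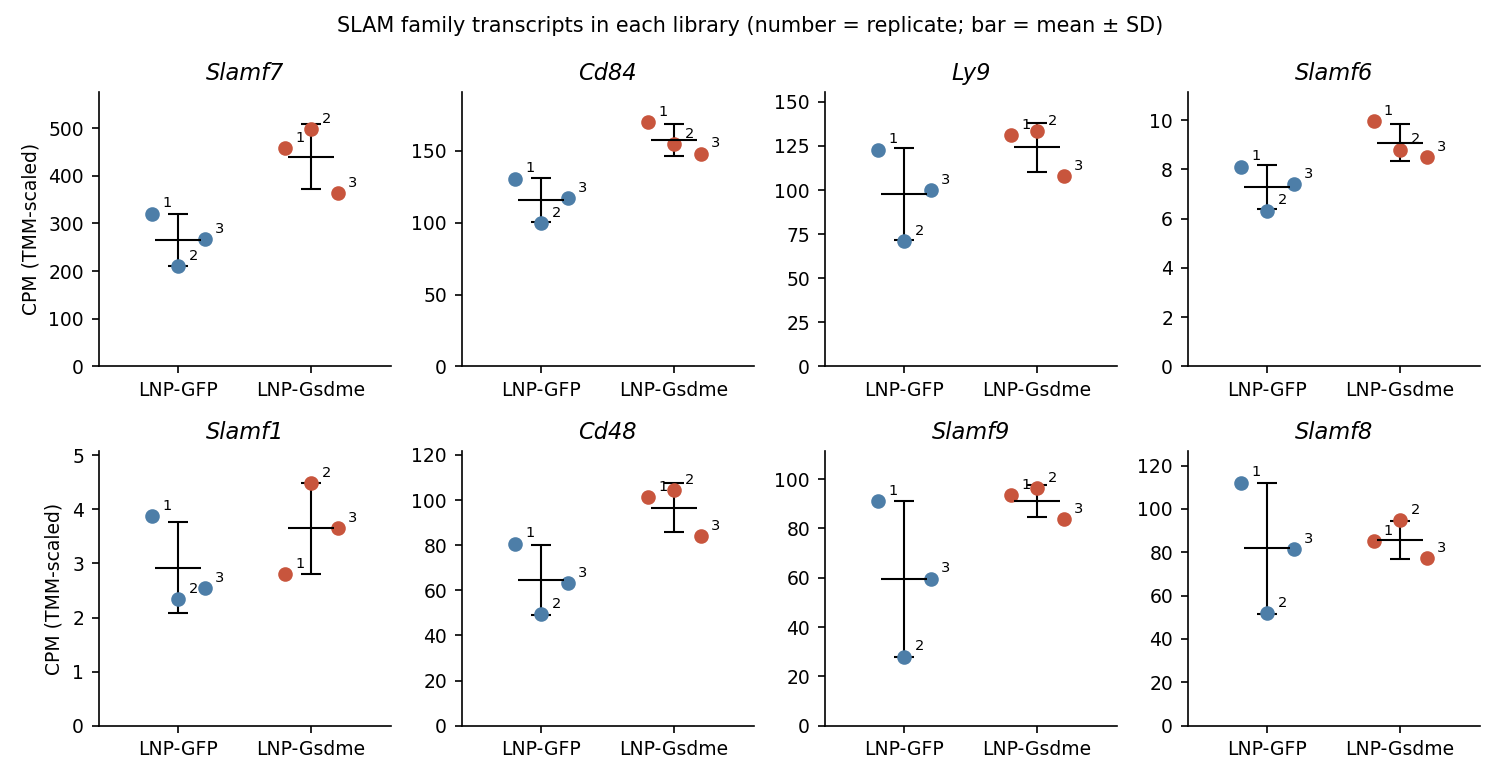
Level of each SLAM family gene in the 6 libraries, in CPM scaled by TMM factors (linear axes from 0). Points are libraries with their replicate number, and bars are the mean ± SD of 3. The groups are separate for Slamf7, Cd84, Cd48 and Slamf6, and LNP-GFP 2 is the lowest control in all 8 panels.

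Slamf7 (chromosome 1, 171459971 to 171480603, GRCm39), a self-binding receptor of macrophages, NK cells and plasma cells, had the largest fold change of the family. LNP-GFP 1 to 3 held 320, 210 and 266 CPM of it (CPM, counts scaled by library size), and LNP-Gsdme 1 to 3 held 458, 498 and 364 CPM. The lowest LNP-Gsdme library lay above the highest control, LNP-GFP 1, and the controls spread 1.53-fold. The group means were 265 ± 55.3 and 440 ± 68.6 CPM (SD, n = 3). The log2 fold change was 0.73 ± 0.18 (SE; 95% interval 0.29 to 1.17; edgeR adjusted p = 0.0514). The adjusted p of Slamf7 ran from 0.00279 to 0.333 over 17 alternative analyses, of which 8 called it. With 1 library left out in turn, its log2 fold change ran from 0.59 to 0.90.

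Cd84 (chromosome 1, 171667265 to 171718285), a self-binding receptor found on many myeloid cells and platelets, spread least between the controls among the 6 abundant members. The controls by number held 131, 99.6 and 117 CPM of it, and LNP-Gsdme 1 to 3 held 170, 155 and 148 CPM. The groups did not overlap, and the means were 116 ± 15.6 and 158 ± 11.3 CPM (SD, n = 3). For Cd84 the log2 fold change was 0.44 ± 0.12 (SE; 95% interval 0.17 to 0.72; edgeR adjusted p = 0.0553).

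Cd48 (chromosome 1, 171509577 to 171532826), the lipid-anchored ligand of Cd244 and Cd2, had a similar pattern with a wider spread. LNP-GFP 1 to 3 held 80.6, 49.5 and 63.3 CPM of it, and LNP-Gsdme 1 to 3 held 101, 105 and 84.2 CPM. LNP-Gsdme 3 lay just above LNP-GFP 1, so the groups were separate by a small gap. The means were 64.5 ± 15.6 and 96.7 ± 11.0 CPM (SD, n = 3). The fitted log2 fold change was 0.58 ± 0.19 (SE; 95% interval 0.14 to 1.03; edgeR adjusted p = 0.0878).

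Slamf6 (chromosome 1, 171745082 to 171780737), a self-binding receptor of T and NK cells, was measured from 138 to 186 counts per library. The controls by number held 8.11, 6.32 and 7.39 CPM of it, and LNP-Gsdme 1 to 3 held 9.94, 8.80 and 8.50 CPM. The groups did not overlap, with LNP-Gsdme 3 just above LNP-GFP 1. The log2 fold change of Slamf6 was 0.32 ± 0.14 (SE; 95% interval -0.018 to 0.66; edgeR adjusted p = 0.177).

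Slamf9 (chromosome 1, 172302925 to 172306142), a receptor with a short tail and no known ligand, differed most between the controls. LNP-GFP 1 to 3 held 90.9, 28.0 and 59.6 CPM of it, a 3.25-fold span, and LNP-Gsdme 1 to 3 held 93.5, 96.2 and 83.8 CPM. LNP-GFP 1 lay within the LNP-Gsdme range and LNP-GFP 2 far below it. This gave a log2 fold change of 0.61 ± 0.38 (SE; 95% interval -0.30 to 1.53; edgeR adjusted p = 0.309). The interval holds both no change and a larger difference than that estimated for Slamf7.

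Slamf8 (chromosome 1, 172409325 to 172418135), a short-tailed receptor known as a brake on the phagocyte oxidase in macrophages, had the smallest fold change. The controls by number held 112, 52.0 and 81.3 CPM of it, and LNP-Gsdme 1 to 3 held 85.1, 94.9 and 77.3 CPM. The LNP-Gsdme libraries all lay between LNP-GFP 2 and LNP-GFP 1. Its log2 fold change was 0.067 ± 0.26 (SE; 95% interval -0.56 to 0.70; edgeR adjusted p = 0.880). It was -0.17 without LNP-GFP 2 and -0.0091 without LNP-Gsdme 2, so no direction can be given for Slamf8.

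Ly9 (chromosome 1, 171416192 to 171434978), a self-binding receptor best known from lymphocytes, had an intermediate level. LNP-GFP 1 to 3 held 123, 70.9 and 99.9 CPM of it, and LNP-Gsdme 1 to 3 held 131, 133 and 108 CPM. LNP-GFP 1 lay within the LNP-Gsdme range. For Ly9 the log2 fold change was 0.34 ± 0.20 (SE; 95% interval -0.14 to 0.83; edgeR adjusted p = 0.290). The Ly9 gene overlaps Cd244a (171386761 to 171437314) in the deposited positions. In GENCODE release M21 the pair lie on opposite strands, and 2738 exonic bases of Ly9 and 3760 of Cd244a share 0 positions. The deposited values imply a counted length of 5203 bases for Ly9, more than was compared, so reads of Ly9 and Cd244a may be mixed.

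Slamf1 (chromosome 1, 171594695 to 171628752), the founding member and a sensor of bacteria in phagocytes, rests on 50 to 89 counts per library. The controls by number held 3.88, 2.34 and 2.55 CPM of it, and LNP-Gsdme 1 to 3 held 2.81, 4.49 and 3.66 CPM, with overlapping groups. The log2 fold change of Slamf1 was 0.32 ± 0.27 (SE; 95% interval -0.33 to 0.97; edgeR adjusted p = 0.454).

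One order of the controls ran through the whole family. LNP-GFP 2 was the lowest, LNP-GFP 3 the middle and LNP-GFP 1 the highest control in 8 of 8 members, as in 31.2% of all tested genes. The highest control stood above the lowest by a median factor of 1.65 over the members and 1.28 over all tested genes. In LNP-Gsdme the same factor was 1.23 for the members and 1.23 for all tested genes. Across the table, LNP-GFP 3 was close to a mixture of the other 2 controls, with a weight of 47.4% on LNP-GFP 1. Its median squared difference from that mixture was 1.95 times counting error, against 22.5 times between LNP-GFP 1 and LNP-GFP 2. Leaving out LNP-GFP 3 left the adjusted p of Slamf7, Cd84 and Cd48 at 0.162, 0.166 and 0.225 by the same edgeR test. Their log2 fold changes in that fit were 0.74, 0.46 and 0.58. Of all tested genes 0.395% rose in that fit, against 6.30% with all 6 libraries.

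The size of the difference therefore depends on which control is used. The single controls below were chosen after the data were seen, and are the lowest (LNP-GFP 2) and highest (LNP-GFP 1) of every member. A higher LNP-Gsdme mean against LNP-GFP 2 was favoured by that choice and is no separate support. Against LNP-GFP 2 alone the LNP-Gsdme mean was higher in every member, by 2.10-fold for Slamf7, 1.58-fold for Cd84, 1.95-fold for Cd48 and 3.26-fold for Slamf9. Against LNP-GFP 1 alone the ratios were 1.37 for Slamf7, 1.21 for Cd84, 1.20 for Cd48 and 1.12 for Slamf6. They were 1.01 for Ly9 and 1.003 for Slamf9, and 0.941 for Slamf1 and 0.765 for Slamf8. With LNP-GFP 1 left out, Slamf7, Cd84 and Cd48 passed the test (9.96% of all tested genes rose), and with LNP-Gsdme 3 left out Slamf7 passed (5.63%). With LNP-GFP 2 as the only control 6 members rose (5.66% of all tested genes), and with LNP-GFP 1 as the only control 0 did (0.0477%). Slamf7 also passed without robust fitting (6.36% of all tested genes rose), and Slamf7 and Cd84 passed with a stricter filter (7.32%) or with scaling by library size alone (6.95%).

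**Figure D2:**
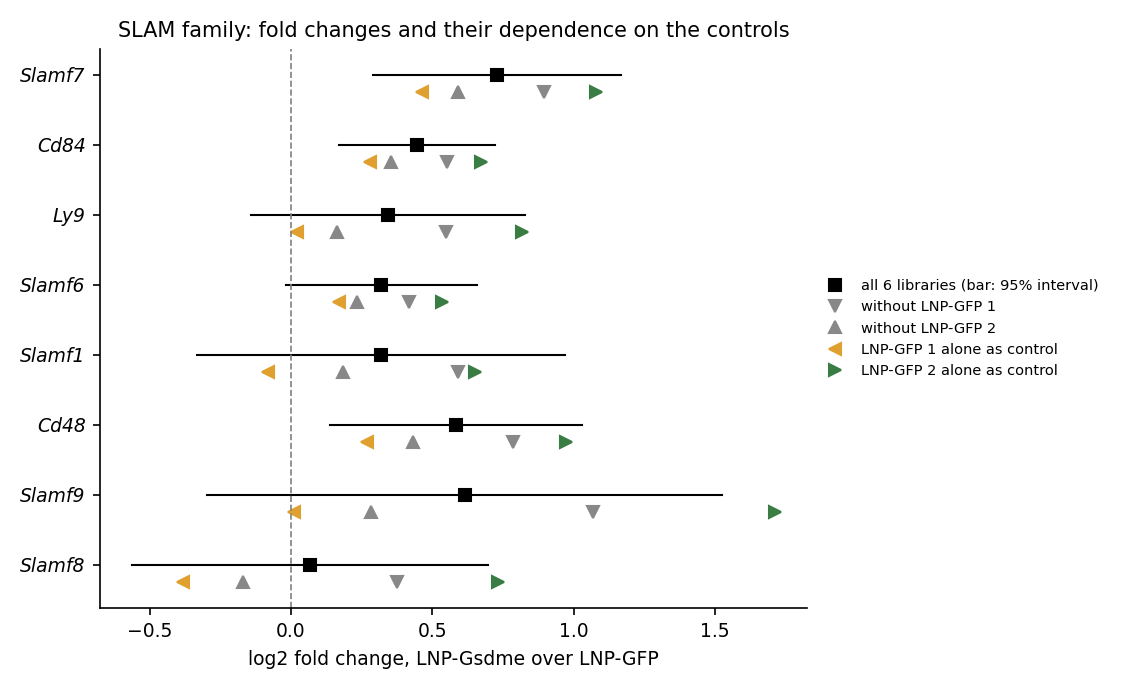
Log2 fold change of each SLAM family gene, LNP-Gsdme over LNP-GFP, with all 6 libraries (squares, bars are 95% intervals) and with fewer controls (triangles, no interval drawn). With LNP-GFP 1 alone as control, Slamf8 (-0.38) and Slamf1 (-0.082) lie below 0, and with LNP-GFP 2 alone all 8 members lie above 0.

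Each member's share of the family's summed level was compared as well. The FPKM of the 8 members summed to 249, 128 and 188 in LNP-GFP 1 to 3 and to 282, 298 and 250 in LNP-Gsdme 1 to 3. Slamf8 took 14.4, 12.7 and 13.7% of that sum in LNP-GFP 1 to 3 and 9.53, 10.2 and 10.2% in LNP-Gsdme 1 to 3. Ly9 took 9.49, 10.4 and 10.1% and then 8.83, 8.61 and 8.59%. Both shares were lower in every LNP-Gsdme library (two-sided exact permutation p = 0.1, which is the smallest value possible with 3 against 3, and 0.4 adjusted over the 8 shares). A lower share is not a lower level, since it also depends on the other members. Mean FPKM in LNP-GFP and LNP-Gsdme was 25.9 and 27.6 for Slamf8, and 18.6 and 24.0 for Ly9. The shares of the other 6 members overlapped between the groups. Slamf7 took 22.8 to 28.5% over the controls, against 26.8 to 29.7% with Gsdme mRNA.

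The sorted cells carried markers of the monocyte and macrophage line and also of other cells, some of which express SLAM receptors. Ly6c2, the antigen of the sort, measured 257, 267 and 211 CPM in the 3 controls by number, and 1374, 1856 and 1400 CPM in LNP-Gsdme 1 to 3, although both groups were sorted as high for it. Itgam, which encodes CD11b, stood at 327 to 632 CPM over the 6 libraries, and Ly6g had 0 to 11 counts. The summed Ly6C-high monocyte markers spanned 3525 to 4848 CPM over the controls, against 4116 to 4387 CPM with Gsdme mRNA. The macrophage markers summed to 5380, 3446 and 4674 CPM in LNP-GFP 1 to 3, and to 3479, 3745 and 3539 CPM in LNP-Gsdme 1 to 3.

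NK and T cells, in which Slamf6, Slamf7, Ly9, Cd48 and Cd244a are well known, had markers with the same order of controls as the family. The 10 NK cell markers summed to 574, 153 and 356 CPM in LNP-GFP 1 to 3 and to 746, 699 and 564 CPM in LNP-Gsdme 1 to 3. The 10 T cell markers summed to 523, 182 and 349 CPM and to 562, 567 and 451 CPM. LNP-GFP 2 was the lowest and LNP-GFP 1 the highest control for both sums, as for each SLAM gene, and the groups overlapped in both sums. The macrophage, B and plasma cell and endothelial sums had their controls in the same order. That order of the controls held for 8 of 9 tested NK markers, 9 of 10 T cell markers and 7 of 9 macrophage markers. Over all tested genes it held for 31.2%. It held for 2 of 8 Ly6C-high monocyte, 2 of 8 conventional dendritic, 1 of 6 plasmacytoid dendritic and 1 of 7 neutrophil markers. For B and plasma cell, mast cell and endothelial markers it was 2 of 4, 2 of 3 and 4 of 6. It held for 0 of 6 fibroblast and 0 of 6 melanoma markers. Gzmb and Nkg7, the most abundant NK markers, spanned 54.2 to 268 and 31.6 to 115 CPM over the controls, and 275 to 359 and 94.5 to 136 CPM over LNP-Gsdme. In 4 of the 9 tested NK markers, Gzmb among them, every LNP-Gsdme library lay above every control, as in 0 of the 10 T cell markers. Over all tested genes the share was 19.6%. Of the 9 only Gzma rose, a granzyme that is named after its values were seen. The controls by number held 9.90, 3.85 and 7.09 CPM of Gzma, and LNP-Gsdme 1 to 3 held 42.9, 37.4 and 26.2 CPM. Its log2 fold change was 2.35 ± 0.36 (SE; edgeR adjusted p = 0.0173), and it did not pass without LNP-GFP 3 (0.0963), LNP-Gsdme 1 (0.0731) or LNP-Gsdme 2 (0.0704). Cd8a and Cd3g, the most abundant T cell markers, spanned 36.8 to 111 and 27.3 to 89.6 CPM over the controls. Over LNP-Gsdme the same 2 markers spanned 111 to 142 and 71.6 to 106 CPM. Of the NK list Ncr1 had 0 counts in LNP-GFP 2 and at most 15 elsewhere, and 0 markers of the T cell list were at 0 in any library. The part of NK, T or macrophage RNA in the SLAM values was not tested.

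The remaining marker lists were lower in LNP-Gsdme or overlapped between the groups. Fibroblast markers summed to 8591 to 9770 CPM in LNP-GFP and 2057 to 5385 CPM in LNP-Gsdme. Melanoma markers summed to 270 to 1635 and 79.3 to 651 CPM, with LNP-GFP 2 the highest library. B and plasma cell markers summed to 44.1 to 63.0 and 40.4 to 63.9 CPM, with Cd79a and Pax5 among the markers at 0 in some libraries. Plasmacytoid and conventional dendritic cell markers summed to 84.1 to 91.3 and 131 to 170 CPM in LNP-GFP, and to 59.4 to 95.4 and 73.0 to 110 CPM in LNP-Gsdme. Neutrophil, mast cell and endothelial markers summed to 164 to 379, 18.5 to 21.9 and 259 to 294 CPM in LNP-GFP. In LNP-Gsdme they summed to 220 to 415, 9.44 to 14.5 and 206 to 258 CPM, and the mast cell genes Mcpt4 and Ms4a2 were at 0 in some libraries. Their part in the SLAM values was not tested.

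**Figure D3:**
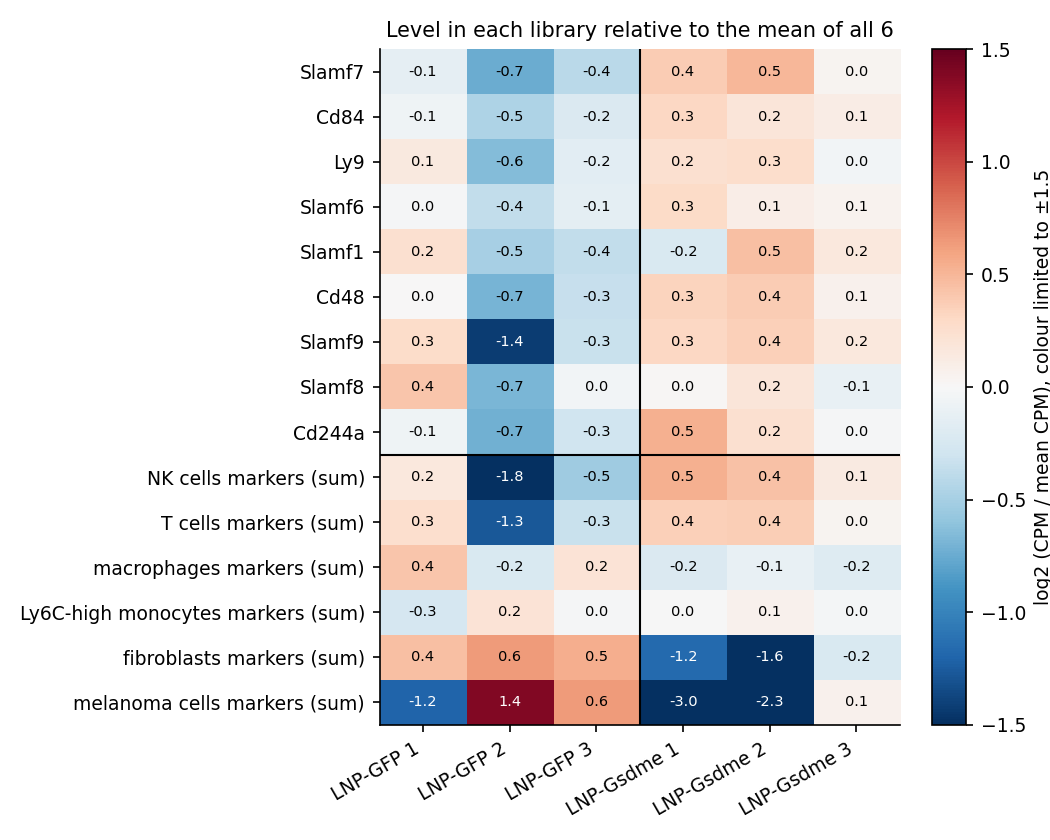
Level of each SLAM family gene, of Cd244a and of 6 summed marker lists in each library, as the log2 ratio to the mean CPM of all 6 libraries (numbers in the cells, colours limited to ±1.5). The SLAM genes and the NK cell, T cell and macrophage markers are all lowest in LNP-GFP 2, and the melanoma markers are highest there.

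Among the binding partners and adaptors, the SAP-family adaptor EAT-2A was the gene that passed the test. Sh2d1b1 (chromosome 1, 170104889 to 170114338), which encodes EAT-2A, links the switch motifs printed above to downstream enzymes in NK cells and phagocytes. LNP-GFP 1 to 3 held 10.7, 9.76 and 9.39 CPM of it, and LNP-Gsdme 1 to 3 held 19.0, 18.0 and 18.3 CPM. Both groups were tight and far apart. Sh2d1b1 rose, with a log2 fold change of 0.89 and an SE of 0.10 (edgeR adjusted p = 0.00806). Its controls did not follow the order of the SLAM genes, since LNP-GFP 3 was the lowest. It also passed without LNP-GFP 1, LNP-GFP 2, LNP-Gsdme 2 or LNP-Gsdme 3, and over the libraries left out in turn its edgeR adjusted p ran from 0.0111 to 0.0672. It did not pass without LNP-GFP 3 or without LNP-Gsdme 1. Sh2d1a, which encodes SAP, measured 3.49, 1.79 and 3.50 CPM in the 3 controls by number, and 5.11, 2.99 and 3.66 CPM in LNP-Gsdme 1 to 3 (log2 fold change 0.43 ± 0.33 SE, edgeR adjusted p = 0.401). Sh2d1b2, the near copy that encodes EAT-2B, had 6, 3 and 3 counts in LNP-GFP 1 to 3 and 10, 4 and 10 in LNP-Gsdme 1 to 3 and was not tested. Reads of both EAT-2 genes may be shared, so their split is uncertain.

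Cd244a, the receptor for Cd48, was higher in LNP-Gsdme without passing the test. The controls by number held 43.4, 27.5 and 36.9 CPM of it, and LNP-Gsdme 1 to 3 held 65.7, 53.6 and 44.6 CPM. The groups did not overlap, although LNP-Gsdme 3 was close to LNP-GFP 1. Its log2 fold change was 0.60 ± 0.21 (SE; edgeR adjusted p = 0.103).

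Of 32 genes listed as partners, adaptors and effectors of SLAM receptors, 31 were tested, 6 rose, 2 fell and 23 did not pass. The whole-table shares given above are 6.30% and 5.32%. The list's median log2 fold change was 0.32, against -0.0066 over all tested genes. By role, 1 of 2 adaptors, 4 of 13 kinases and effectors and 1 of 4 inhibitory phosphatases and kinases rose, while 1 kinase and 1 of 6 phagosome partners fell. Among the 6 other receptors and adhesion partners 0 passed. These genes act downstream of many receptors, so their values are not particular to the SLAM family.

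Ptpn6 (chromosome 6, 124697670 to 124715677) encodes SHP-1, a phosphatase that switch motifs can recruit. LNP-GFP 1 to 3 held 158, 98.1 and 128 CPM of it, and LNP-Gsdme 1 to 3 held 292, 329 and 222 CPM, with no overlap. Ptpn6 rose the most of the list, by 1.14 ± 0.21 in log2 units (SE; edgeR adjusted p = 0.0258). Btk, a kinase of the Tec family, Prkcq, a protein kinase C, and Vav1, a signalling protein of blood cells, rose by log2 fold changes of 0.64, 0.80 and 0.57. In Ptpn6, Btk, Prkcq and Vav1 the controls were in the order of the SLAM genes. That order held in 19 of the 31 tested genes of the list and in 31.2% of all tested genes. Fyn and Cybb moved the other way. Fyn, the kinase that SAP brings to SLAM receptors, measured 204, 225 and 223 CPM in the 3 controls by number, and 158, 178 and 164 CPM in LNP-Gsdme 1 to 3. Fyn fell by 0.38 in log2 units (SE 0.080; edgeR adjusted p = 0.0321). Cybb, the catalytic subunit of the phagocyte oxidase that Slamf1 and Slamf8 are known to influence, measured 1097, 1048 and 1082 CPM in the 3 controls by number, and 792, 733 and 587 CPM in LNP-Gsdme 1 to 3. Cybb fell by 0.61 in log2 units (SE 0.12; edgeR adjusted p = 0.0271). Controls agreed more closely for Fyn and Cybb than for Slamf8 or Slamf9. Without LNP-GFP 3 or without LNP-Gsdme 1, 0 genes of the list rose and 0 fell, without LNP-Gsdme 2 only Sh2d1b1 passed, and without LNP-GFP 2 it was 3 and 0. Without LNP-GFP 1 the counts were 12 and 3, and without LNP-Gsdme 3 they were 8 and 1. The shares of all tested genes that rose and fell were 0.395 and 0.148% without LNP-GFP 3, 0.647 and 0.278% with LNP-Gsdme 1 left out, and 0.721 and 0.412% with LNP-Gsdme 2 left out. They were 3.67 and 2.18% without LNP-GFP 2, 9.96 and 7.45% without LNP-GFP 1, and 5.63 and 7.27% without LNP-Gsdme 3. DESeq2 gave 13 and 3 genes of the list (9.83 and 10.2% of all tested genes). With LNP-GFP 1 as the only control 0 rose and 0 fell (0.0477 and 0.0239%), and with LNP-GFP 2 as the only control 8 rose and 0 fell (5.66 and 2.95%).

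**Figure D4:**
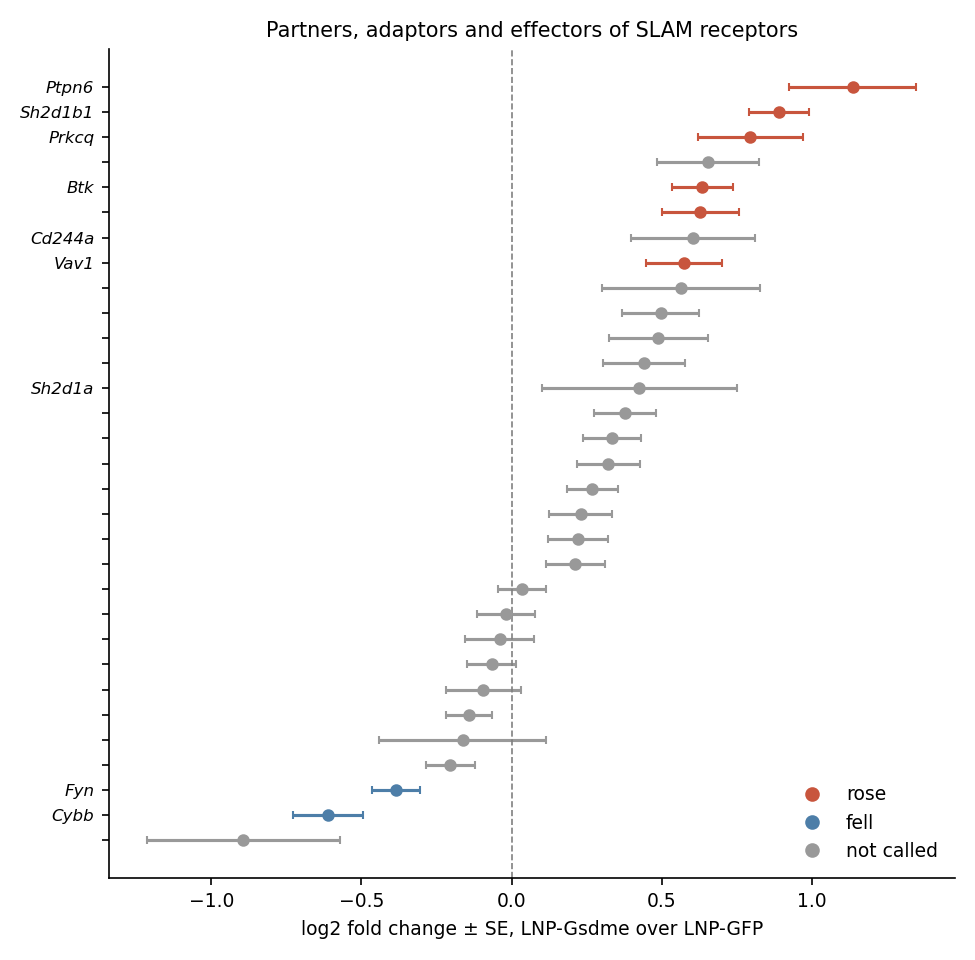
Log2 fold change of the 31 tested partners, adaptors and effectors of SLAM receptors, LNP-Gsdme over LNP-GFP, with its standard error. Red genes rose, blue genes fell and grey genes did not pass at an adjusted p below 0.05, and genes described in the text are labelled. Ptpn6 (1.14) and Sh2d1b1 (0.89) lie highest, while Fyn (-0.38) and Cybb (-0.61) are the genes that fell.

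The 8 members are neighbours on chromosome 1. Ly9, Slamf7, Cd48, Slamf1, Cd84 and Slamf6 lie within 364.5 kb (171416192 to 171780737, GRCm39). Slamf9 and Slamf8 lie in a second group of 115 kb, beyond a gap of 522 kb. Between the outermost members lie 43 other genes, of which 15 were tested. Of these 15, 7 had a fold change above 0, against 49.3% of all tested genes. Their median log2 fold change was -0.11, against 0.39 for the members. The controls were in the order of the family in 6 of the 15, against 31.2% of all tested genes. Igsf9, an immunoglobulin-like gene next to Slamf9 that is named after its values were seen, had a larger fold change than any member and the same order of controls. The 3 controls held 1.70, 0.870 and 1.15 CPM of it by number, and LNP-Gsdme 1 to 3 held 3.43, 2.87 and 2.16 CPM, with no overlap. Its log2 fold change was 1.18 ± 0.31 (SE; edgeR adjusted p = 0.0571), and Igsf9 passed by DESeq2 (adjusted p = 0.0240) and without LNP-GFP 1 (0.0301). Of the 15 genes 0 rose and 1 fell, against 6.30 and 5.32% of all tested genes. Of the same genes 0 fell without LNP-GFP 2, LNP-GFP 3, LNP-Gsdme 1 or LNP-Gsdme 2. In those fits 2.18, 0.148, 0.278 and 0.412% of all tested genes fell.

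**Figure D5:**
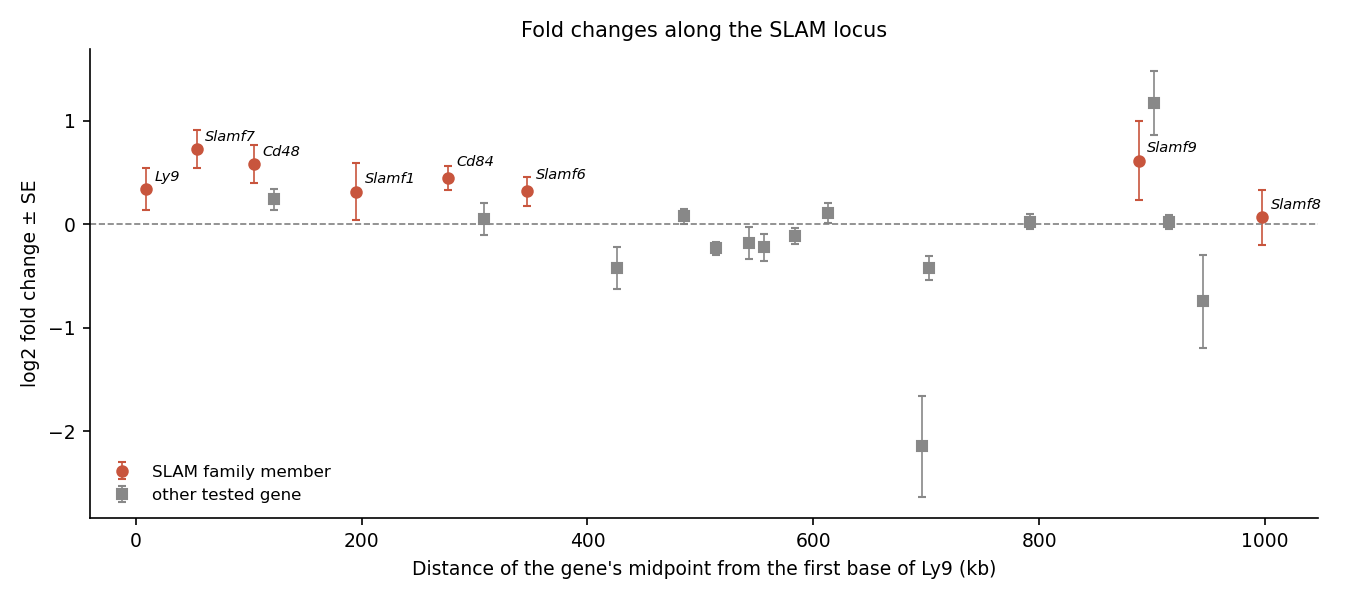
Log2 fold change with its standard error of the SLAM family genes (red circles) and of the 15 other tested genes between them (grey squares), by distance from the first base of Ly9 in kb. All 8 members lie above 0, and the genes in the gap between Slamf6 and Slamf9 lie mostly near or below it.

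The promoters of the members with the largest and the smallest fold change are printed for comparison, as the 250 bases before the start of transcription. They come from RefSeq on GRCm38.p6, an earlier build than that of the counts, and 7 of the 8 members matched, with Ly9 unmatched. Capitals mark matches to the motifs searched.
Slamf7, chr1:171649000-171649249, minus strand, AP-1 match at -42: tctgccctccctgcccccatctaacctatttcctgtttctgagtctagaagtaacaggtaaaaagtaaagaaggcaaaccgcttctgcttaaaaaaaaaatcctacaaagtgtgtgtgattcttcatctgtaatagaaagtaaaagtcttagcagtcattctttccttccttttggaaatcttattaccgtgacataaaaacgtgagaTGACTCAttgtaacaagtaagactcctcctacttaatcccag
Slamf8, chr1:172590569-172590818, minus strand, E-box match at -157 and ISRE match at -15: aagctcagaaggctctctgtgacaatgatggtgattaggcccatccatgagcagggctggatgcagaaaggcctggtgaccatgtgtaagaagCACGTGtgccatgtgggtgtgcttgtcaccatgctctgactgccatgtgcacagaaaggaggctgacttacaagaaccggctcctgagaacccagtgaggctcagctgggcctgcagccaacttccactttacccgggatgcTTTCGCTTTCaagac
Positions count from the start site to the first base of the match. Both strands were searched from 250 bases before to 50 after the start, and the motifs were chosen with the fold changes known. The AP-1 motif TGANTCA was in the promoters of Slamf7, Cd84 and Slamf8, and in 7.81% of 32851 promoters. The interferon-stimulated response element (ISRE), searched as GAAA, 2 bases of any kind and GAAA, was in the promoter of Slamf8 and of no other matched member, and in 3.44% of all. The E-box CACGTG was in those of Slamf9 and Slamf8 (7.15% of all), the RUNX motif TGTGGT in those of Cd48 and Cd84 (16.8%), and the PU.1 motif AGGAAGT in that of Slamf9 (9.35%). The GAS motif TTCNNNGAA, the C/EBP motif TTGCNNAA and the ETS-IRF composite (GGAA, 2 bases of any kind and GAAA) were in 0 of the 7, and in 8.30, 10.8 and 2.72% of all. The matches printed here do not overlap each other.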

How the data were processed

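Sorted tumour monocytes were measured by RNA sequencing in 6 libraries. Per the file headers, the authors deposited raw counts and FPKM per gene in 1 table. Per the submitters' processing notes the reads were placed on GRCm39. Not given in the sources used here are the aligner, the counter, whether it used strand, and the gene annotation. The deposited FPKM equal counts divided by gene length and library total (checked on 11356 genes, largest difference 0.00178%).

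Groups were taken from the treatment label and replicate numbers from the title. The 3 LNP-GFP libraries held 20233559 to 22932095 counts, and those of LNP-Gsdme 15991826 to 18751784. Counts were analysed with edgeR 4.0.16 in R 4.3.3 (filterByExpr by group, TMM factors of 0.980 to 1.04, robust quasi-likelihood test, Benjamini-Hochberg adjustment over 16010 genes, calls at an adjusted p below 0.05). CPM are counts of the tested genes per library total scaled by TMM, and intervals come from the fit. Shares were tested with scipy.

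The members, the pathway and marker lists and the motifs were chosen with earlier results of these data known. The rule for named genes took all members, Cd244a, the SAP-family adaptors, called pathway and locus genes, the 2 most abundant markers of a list and the sort genes, and, for each called member, its 2 best correlated genes. As 0 members were called, the last part named 0 genes, and of the markers only those of NK and T cells are given singly. Some genes that the rule names are not reported here. Alternatives were DESeq2 1.42.0, voom in limma 3.58.1, RLE, upper-quartile and library size scaling, no filter, a stricter filter (1 CPM on average and 10 counts in 3 libraries), fitting without the robust step, a block by replicate number and each library left out. A single control, LNP-GFP 1 or LNP-GFP 2, was added after seeing the data. Only the main edgeR fit was tested on simulated data, with libraries drawn independently.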

Additional observations from a re-analysis of the deposited data

How the results depend on the processing

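Of the 8 members, 0 fell under any alternative. DESeq2 called 3 higher (Cd84, Cd48 and Slamf7), limma-voom 1, library size scaling 2, the stricter filter 2, fitting without the robust step 1 and LNP-GFP 2 alone as control 6. With 1 library left out the count ran from 0 to 3. Of all tested genes, 9.83% rose by DESeq2, 6.46% by limma-voom and 6.95% with library size scaling. With the stricter filter 7.32% rose, without the robust step 6.36%, and with 1 library left out 0.395 to 9.96%. The log2 fold change of Slamf8 ran from -0.17 (without LNP-GFP 2) to 0.37 with 1 library left out, was -0.0091 without LNP-Gsdme 2 and -0.38 with LNP-GFP 1 alone, and that of Slamf1 was -0.082 with LNP-GFP 1 alone. Of the partners, adaptors and effectors, DESeq2 called 13 higher, and LNP-GFP 1 alone gave 0 higher and 0 lower and LNP-GFP 2 alone 0 lower. With 1 library left out they ran from 0 to 12 higher and from 0 to 3 lower. For the other genes of the locus DESeq2 gave 1 higher and 2 lower, and leaving out 1 library gave 0 to 1 higher and 0 to 1 lower. The share of all tested genes that fell was 10.2% by DESeq2, and 0.148 to 7.45% with 1 library left out. Over the whole table, DESeq2 gave 1525 lower, LNP-GFP 1 alone 8 higher and 4 lower, and LNP-GFP 2 alone 499 lower. With 1 library left out, 64 to 1625 were higher and 24 to 1216 lower. The cause of these shifts was not tested. 

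Deviations from the group means correlated weakly between same-numbered libraries (r = 0.214, -0.237 and 0.0315). With 3 libraries per group these values cannot decide whether the numbers pair the samples. With the replicate number as a block, 103 genes of the table were higher and 52 lower, 0 partners and effectors were higher and 0 lower, 0 other genes of the locus were lower, and 0 members were called.

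A single control leaves the spread to be estimated from LNP-Gsdme alone, and the lone library is assumed to vary like them. Relative counting error is largest for Slamf1 and Slamf6, with 50 to 89 and 138 to 186 counts per library, but the SE did not follow depth over the members: it was 0.14 for Slamf6 and 0.38 for Slamf9.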
